A study of Ursus arctos with 12 samples.

Results

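The 10 endothelial identity genes described here, PECAM1, CDH5, ESAM, CLDN5, EMCN, ROBO4, VWF, EGFL7, ERG and NOS3, were taken by symbol from the count table of brown bear muscle, and each was 1 of its 30249 genes. The muscle was the vastus lateralis of the thigh, biopsied in 6 free-ranging brown bears (Ursus arctos) of 2 to 3 years of age. Each bear gave a winter library, from hibernation in February, and a summer library, from the active period in June of the same year, so that 12 libraries formed 6 pairs. The bears carried no genetic modification and received no treatment other than capture and anaesthesia, and a biopsy holds muscle fibres together with every other cell of the tissue.

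Endothelial cells line all blood vessels, and in skeletal muscle most of them form the capillaries that run along the fibres and deliver oxygen and fuel. They are held together by adherens junctions, built on the cadherin CDH5, and by tight junctions, to which ESAM and CLDN5 belong, and these seals set how easily water, solutes and leukocytes leave the blood. Transcription factors of the ETS family such as ERG maintain the endothelial programme, VWF is stored in granules and captures platelets after injury, and NOS3 makes the nitric oxide that relaxes the vessel wall. PECAM1 is also carried by leukocytes and platelets, and VWF is also made by megakaryocytes.

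Between 16742406 and 32140160 reads per library were counted on genes. After genes with fewer than 30 reads over the 12 libraries were left out, 17290 genes were tested for winter against summer with edgeR's quasi-likelihood test and Benjamini-Hochberg adjustment over all of them, and a gene was called at an adjusted p below 0.05. Levels are given as log2 CPM, the log2 of counts per unit of sequencing depth (CPM) after TMM scaling with a prior count of 2. Every log2 fold change is winter minus summer and comes with its standard error (SE). Reads were not divided by transcript length, so levels are compared between seasons and not between genes. The 14 muscle fibre markers found in the table, among them ACTA1, CKM and TTN, summed to 139841 to 234371 CPM in summer and 155841 to 202156 CPM in winter. The winter library of bear 1509 stands apart from the other winter libraries in several of the results below, and values without it are given there. It had the fewest reads of the 12 libraries, 16742406, and the most genes with a read, 19512. Its TMM factor was 1.08, with the other winter libraries at 0.923 to 0.982. The part of these traits in its gene levels was not tested.

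The genes split. VWF, CDH5, EMCN and PECAM1 were lower in winter, CLDN5 and ERG were higher, ESAM, ROBO4 and NOS3 were not called, and EGFL7 had too few reads to be tested. Thus 4 of the 9 tested genes were called lower, where 19.9% of all tested genes were, and 2 of 9 were called higher, where 19.6% were. Their median log2 fold change was −0.13, beside −0.00212 over all genes tested. Every library held at least 96 reads of each of the 9, so none of them passed the filter through a single season. The study set stricter limits for differentially expressed genes, with adjusted p under 0.01 and the winter to summer ratio over 1.3 or under 0.77. By these, VWF, CDH5, EMCN and ERG were called, 4 of 9 beside 24% of all genes. In a biopsy, fewer endothelial cells and less of an RNA per endothelial cell cannot be told apart.

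**Figure D1:**
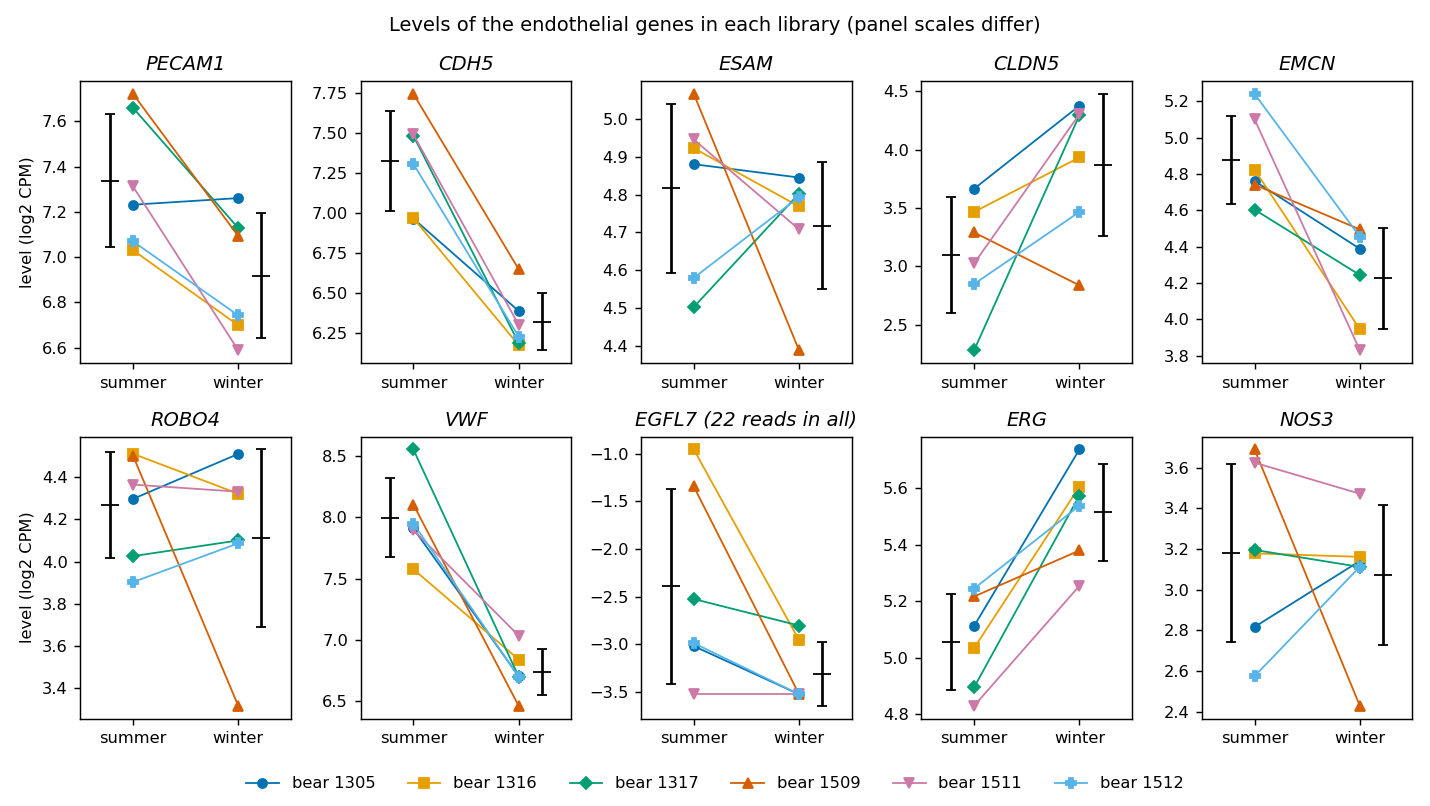
Levels of the 10 genes in each library, in log2 CPM on the vertical axis of each panel, with summer on the left and winter on the right. Lines join the libraries of a bear, and black bars give the mean and SD of 6 bears. The winter values of VWF, CDH5 and EMCN lie below every summer value, and those of ERG above every summer value. Bear 1509, in vermillion with upward triangles, falls steeply in ESAM, ROBO4 and NOS3.

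The junction genes went in both directions. CDH5 encodes VE-cadherin, the adhesion molecule of endothelial adherens junctions. It lay at 6.97 to 7.75 log2 CPM in summer (median 7.40) and at 6.17 to 6.65 in winter (median 6.26). No winter library reached a summer one, and CDH5 was lower in 6 of 6 bears, with differences from −0.58 in bear 1305 to −1.3 in bear 1317. CDH5 fell by 1.03 on the log2 scale (SE 0.14, adjusted p = 0.000111), which is a winter level 0.491 times that of summer. Among all tested genes, 8.21% had every winter library below every summer library, and 19% were lower in every bear, beside 3 of 9 here for both (VWF, CDH5 and EMCN).

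PECAM1, the CD31 antigen, is an adhesion molecule at the contacts between endothelial cells. Its level was 7.03 to 7.72 log2 CPM in summer (median 7.27) and 6.59 to 7.26 in winter (median 6.92). The seasons overlapped, with 3 winter libraries below all summer libraries and bear 1305 almost level at 7.23 in summer and 7.26 in winter. PECAM1 was lower in 5 of 6 bears, and fell by 0.42 on the log2 scale (SE 0.15, adjusted p = 0.0416). In this fit without a bear term, the call was lost when any bear other than 1305 was left out. The adjusted p became 0.0584 on omitting bear 1316, 0.0863 for bear 1317, 0.0912 for bear 1509, 0.105 for bear 1511 and 0.066 for bear 1512, and it ran from 0.00469 to 0.105 over the alternatives. With the bear as a replicate block PECAM1 was called, at an adjusted p of 0.0157 with all bears and 0.0354 without bear 1509, and the block was not run without the other bears.

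ESAM encodes an immunoglobulin-family adhesion molecule of endothelial tight junctions and platelets. It was measured at 4.5 to 5.07 log2 CPM in summer (median 4.90) and at 4.39 to 4.85 in winter (median 4.78), so that the ranges largely coincided. It was lower in 4 of 6 bears, and its log2 fold change of −0.10 (95% interval −0.36 to 0.15, adjusted p = 0.502) was not called. The lowest winter value was that of bear 1509, and the log2 fold change was 0.017 without this bear and −0.045 without only its winter library.

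CLDN5, claudin-5, forms the sealing strands of endothelial tight junctions and restricts the passage of small molecules. With 110 to 507 reads per library, it was at 2.28 to 3.67 log2 CPM in summer (median 3.16) and at 2.84 to 4.38 in winter (median 4.11). In winter, 4 libraries exceeded every summer library, while bear 1509 went from 3.29 in summer down to 2.84 in winter. CLDN5 rose by 0.81 on the log2 scale (SE 0.27, adjusted p = 0.0295), and it was higher in 5 of 6 bears, most in bear 1317 at 2.01. This fit had no bear term. The call was lost on omitting bear 1305 (adjusted p = 0.0506), bear 1317 (0.107), bear 1511 (0.0957) or bear 1512 (0.0502). It held without the winter library of bear 1509, at 0.00489, and the adjusted p ran from 0.0039 to 0.107 over the alternatives. Fitted with the bear as a replicate block, CLDN5 was called at an adjusted p of 0.0319 with all bears and 0.0039 without bear 1509. The block was not run without the other bears.

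At the cell surface, EMCN was lower and ROBO4 was not called. EMCN encodes endomucin, a heavily glycosylated protein on the blood-facing side of capillary and venous endothelium. It was present at 4.6 to 5.24 log2 CPM in summer (median 4.79) and at 3.83 to 4.49 in winter (median 4.32). The seasons did not overlap, and EMCN was lower in 6 of 6 bears, with differences from −0.25 in bear 1509 to −1.27 in bear 1511. It fell by 0.65 on the log2 scale (SE 0.15, adjusted p = 0.00309), or 0.638 times the summer level.

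ROBO4 is the endothelial member of the Roundabout receptors and dampens vessel leakage. Its level was 3.90 to 4.51 log2 CPM in summer (median 4.33) and 3.32 to 4.51 in winter (median 4.21). It was higher in 3 bears and lower in 3, with a log2 fold change of −0.13 (95% interval −0.51 to 0.25, adjusted p = 0.592). Bear 1509 stood at −1.18 and the other 5 bears between −0.19 and 0.21. The log2 fold change was 0.053 without this bear and −0.0052 without only its winter library.

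Of the secreted proteins, VWF gave the largest difference among the 9 tested genes. VWF encodes von Willebrand factor, which endothelial cells store in Weibel-Palade bodies. With 1593 to 8666 reads per library, it was at 7.58 to 8.56 log2 CPM in summer (median 7.93) and at 6.46 to 7.03 in winter (median 6.70). Each winter library lay below all summer libraries. VWF was lower in 6 of 6 bears, with differences from −0.74 in bear 1316 to −1.86 in bear 1317, and fell by 1.28 on the log2 scale (SE 0.15, adjusted p = 3.69e-05). The winter level was 0.411 times that of summer.

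EGFL7 encodes a secreted protein that endothelial cells deposit around growing vessels. Only 22 reads were counted for it in the 12 libraries, 20 in summer and 2 in winter. Summer libraries held 9 reads in bear 1316, 7 in bear 1509, 2 in bear 1317, 1 in each of bears 1305 and 1512 and 0 in bear 1511. In winter, bears 1316 and 1317 had 1 read each, and 4 libraries had 0, which allows up to 3 reads, or 0.0977 to 0.181 CPM in a library. It was among the 42.8% of genes in the table under the 30-read limit, and no fold change is given. Whether the annotation used for counting covers EGFL7 fully was not examined.

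The transcription factor ERG, which holds endothelial genes active and keeps junctions closed, was higher in winter. It was counted at 4.83 to 5.24 log2 CPM in summer (median 5.07) and at 5.25 to 5.74 in winter (median 5.56). The lowest winter library, that of bear 1511, was just above the highest summer library, that of bear 1512. ERG was higher in 6 of 6 bears, by 0.16 in bear 1509 to 0.68 in bear 1317, and rose by 0.46 on the log2 scale (SE 0.11, adjusted p = 0.00383), a 1.38-fold change. Over all tested genes, 9.12% had every winter library above every summer library and 18.4% were higher in every bear, beside 1 of 9 here for both.

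NOS3, the endothelial nitric oxide synthase, had 96 to 307 reads per library. Its level was 2.57 to 3.69 log2 CPM in summer (median 3.19) and 2.43 to 3.47 in winter (median 3.13), and the 2 ranges coincided over most of their length. It was lower in 4 of 6 bears, though the differences of bears 1316 and 1317 were −0.02 and −0.08. The log2 fold change was −0.13 (95% interval −0.58 to 0.31, adjusted p = 0.641). Bear 1509 stood at −1.26, and the log2 fold change was 0.095 without this bear and −0.028 without only its winter library. For ESAM, ROBO4 and NOS3 the sign of the estimate thus changed when bear 1509 was left out entirely, and the intervals include changes of either sign.

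**Figure D2:**
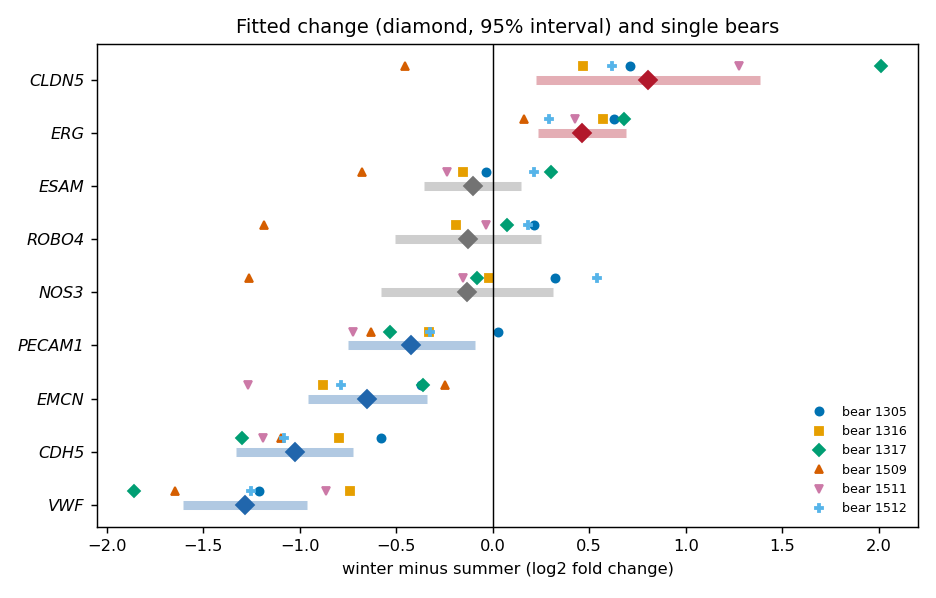
Winter minus summer of the 9 tested genes on the log2 scale: diamonds are fitted log2 fold changes with their 95% intervals as bars (red higher, blue lower, grey not called), and small symbols are single bears. All 6 bears lie left of 0 for VWF, CDH5 and EMCN and right of 0 for ERG, while bear 1509 lies apart on the left for ESAM, ROBO4, NOS3 and CLDN5.

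Most reads of the group belonged to VWF, CDH5 and PECAM1, and the sum of these 3 was lower in winter in 6 of 6 bears. Summed over the 10 genes, the level was 581 to 864 CPM in summer and 418 to 496 CPM in winter, lower in 6 of 6 bears. VWF, CDH5 and PECAM1 made up 76.9 to 87.7% of this sum in summer and 68.2 to 75.2% in winter, and their own sum went from 447 to 758 CPM down to 285 to 341 CPM. The other 7 genes together were at 107 to 143 CPM in summer and at 107 to 155 CPM in winter, higher in 4 bears and lower in 2. This division of the genes was made after their values were seen, so it is a description and was not tested.

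Set against PECAM1 in the same library, the genes moved apart from each other. PECAM1 itself had a log2 fold change of −0.42, so each ratio also holds the fall of PECAM1. ERG relative to PECAM1 was higher in winter in 6 of 6 bears, by 0.88 ± 0.26 on the log2 scale (mean ± SD, n = 6 bears), and its seasons did not overlap. For CDH5 the same ratio was lower in 6 of 6 bears, by −0.59 ± 0.14, with single bears between −0.77 and −0.46 and again no overlap. VWF relative to PECAM1 was lower in 6 of 6 bears (−0.84 ± 0.47) and CLDN5 higher in 6 of 6 (1.19 ± 0.89), both with overlapping seasons. In bear 1509 the CLDN5 ratio stood at 0.18, where PECAM1 (−0.63) fell by more than CLDN5 (−0.45). ESAM, ROBO4 and NOS3 were at 0.32 ± 0.36, 0.26 ± 0.46 and 0.31 ± 0.51, and EMCN was at −0.23 ± 0.40, with bears on both sides of 0 for each.

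**Figure D3:**
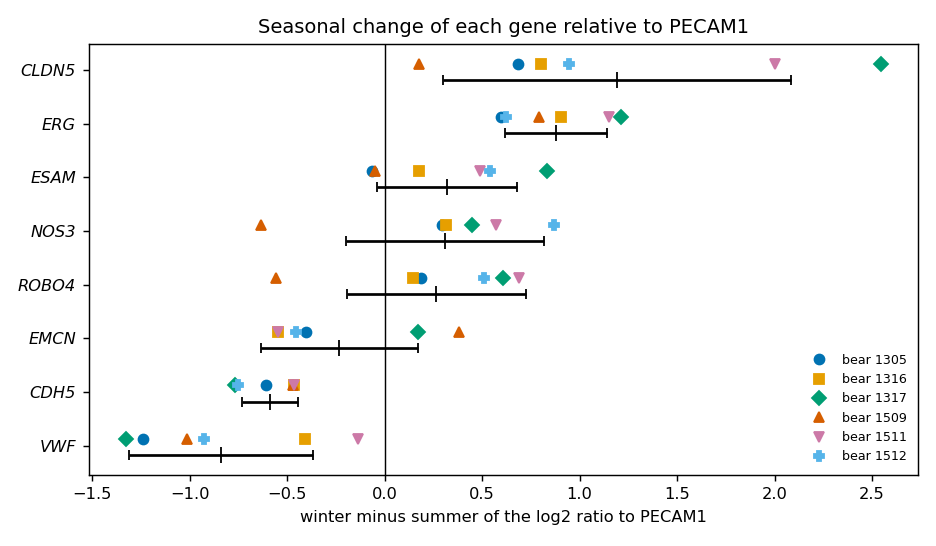
Winter minus summer of the log2 ratio of each gene to PECAM1, 1 symbol per bear, with the mean and SD of 6 bears in black. CLDN5 and ERG lie right of 0 and CDH5 and VWF left of 0 in all 6 bears, and bear 1509 is lowest for CLDN5, NOS3 and ROBO4.

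The junction genes CLDN5 and CDH5 were also set against each other directly. For each CLDN5 read, summer libraries held 9.90 reads of CDH5 in bear 1305, 11.4 in bear 1316, 37.5 in bear 1317, 22.1 in bear 1509, 22.3 in bear 1511 and 22.2 in bear 1512. The winter libraries held 4.04, 4.74, 3.72, 14.2, 4.00 and 6.81 in the same order. The ratio was lower in winter in each bear, and only bear 1509 remained within the summer range.

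The bears differed in how many genes followed each direction. In bear 1509, 8 of the 9 tested genes were lower in winter and 1 was higher, with a median difference of −0.68 on the log2 scale, while the median over all tested genes in that bear was −0.00484. In bears 1316 and 1511 it was 7 lower and 2 higher, in bear 1317 5 and 4, and in bears 1305 and 1512 4 and 5. Of the 6 winter libraries, that of bear 1509 was lowest in ESAM, CLDN5, ROBO4, VWF and NOS3 and highest in CDH5 and EMCN. Of the summer libraries, that of bear 1509 was highest in 4 genes, PECAM1, CDH5, ESAM and NOS3, and lowest in none. The differences of bear 1509 in these 4 genes thus also hold its summer level. In summer, bear 1317 combined the highest VWF with the lowest ESAM, CLDN5 and EMCN. Without the winter library of bear 1509, the calls were 4 lower and 2 higher, as with it.

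As a measure of likeness, the root mean square difference between centred log2 CPM profiles over the 12 libraries was taken against 10344 named genes whose mean log2 CPM was 1 or more. The closest profiles were those of LYN, RAPH1 and CLIC4 to PECAM1 (0.13 to 0.15), of STK10, LAMC1 and SPARCL1 to CDH5 (0.14 to 0.16) and of HDLBP, DAAM2 and ADCK2 to VWF (0.18 to 0.22). EMCN was nearest to RFK, EFNB2 and TPM4 (0.146 to 0.165), and ERG to ZBTB24, TMEM260 and PSMD6 (0.08 to 0.10). The nearest to ESAM were ATP6V0B, TFDP1 and SDF4 (all 0.11), to ROBO4 ZNF335, TEPSIN and ARHGDIA (0.12 to 0.14), and to NOS3 LRRC8A, SLC12A7 and RUSC1 (0.14 to 0.18). No gene of the group was among the 3 nearest of another. The best placed were ESAM to ROBO4 (0.19) and CDH5 to VWF (0.31), both at rank 77, and the group member nearest to ERG ranked 3701.

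Other endothelial genes, listed by symbol, were lower or not called. Of 32 tested surface and signalling genes, 18 were lower in winter and 0 higher in edgeR (0 with unadjusted p under 0.05, 0 by DESeq2), with a median log2 fold change of −0.54. Over all tested genes, 19.9% were lower and 19.6% higher. APLNR, the receptor of the peptide apelin, fell by 2.2 on the log2 scale (SE 0.25, adjusted p = 3.1e-05), and GJA5, the arterial gap junction protein connexin 40, fell by 1.70 (SE 0.14, adjusted p = 4.08e-06), each in all 6 bears. The VEGF receptor KDR had a log2 fold change of −0.98 (adjusted p = 0.000307), whereas TEK (−0.09), FLT1 (0.02), CLEC14A (0.02) and S1PR1 (0.17) were not called. KDR, TEK, FLT1, CLEC14A and S1PR1 were named after their values were seen. Summed, the list went from 1802 to 2276 CPM in summer to 1089 to 1421 CPM in winter.

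Of 30 tested partners of the junction genes, 11 were lower, where 19.9% of all tested genes were, and 4 were higher, where 19.6% were. Their median log2 fold change was −0.29. MCAM, an adhesion molecule of endothelial and mural cells, fell by 1.42 (SE 0.26, adjusted p = 0.000845), and HEG1, which anchors the KRIT1 complex at junctions, fell by 1.38 (SE 0.19, adjusted p = 0.000105). OCLN, the tight junction protein occludin, rose by 1.03 (SE 0.22, adjusted p = 0.00232), and ARHGAP35 rose by 0.51 (adjusted p = 0.0195). Each of these went the same way in 6 of 6 bears. Scaling to library totals left 1 partner called higher, and omitting bear 1305 left 2.

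Around ERG, 10 of 31 other transcription factors of endothelial cells were lower and 3 higher, beside 19.9% and 19.6% of all tested genes. TAL1 fell by 1.5 (SE 0.19, adjusted p = 6.25e-05) and HEY1, a Notch target, fell by 0.95 (SE 0.20, adjusted p = 0.0021), each in all 6 bears. MEF2C, which muscle fibres express too, rose by 1.15 (SE 0.13, adjusted p = 2.35e-05) in 6 of 6, and the ETS factor ELF2 by 0.35 (adjusted p = 0.0314) in 5 of 6. Of the other ETS factors, ETS1 fell by 0.90 (SE 0.17, adjusted p = 0.000976) and ETV6 by 0.53 (SE 0.18, adjusted p = 0.0312), each in all 6 bears. FLI1, at −0.23 (adjusted p = 0.182), ELK3, at −0.16, ETS2, at −0.026, and ELF1, at −0.012, were not called. These 6 were named after their values were seen. Of the whole list of transcription factors, only 1 was called higher when libraries were scaled to their totals, and likewise on omitting bear 1305, 1316 or 1509.

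For nitric oxide, beside the uncalled NOS3, 5 of 26 tested genes were lower and 4 higher, with a median log2 fold change of 0.13. These shares were near those of all tested genes (19.9% lower and 19.6% higher). DDAH1, which degrades the NOS inhibitor dimethylarginine, and DDAH2 of the same family moved apart. DDAH1 rose by 1.12 (SE 0.24, adjusted p = 0.00262) and DDAH2 fell by 1.35 (SE 0.26, adjusted p = 0.0012), each in 6 of 6 bears. SPR, which makes the NOS cofactor tetrahydrobiopterin, fell by 1.16 (SE 0.16, adjusted p = 0.000117), and the chaperone HSP90AB1 rose by 0.73 (SE 0.13, adjusted p = 0.000778).

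In the list of vessel wall haemostasis and granule genes, to which VWF relates, 9 of 29 tested were lower and 1 higher. Over all tested genes, 19.9% were lower and 19.6% higher. ENTPD1, which breaks down the platelet activator ADP, fell by 1.57 (SE 0.23, adjusted p = 0.000195), and the prostaglandin enzyme PTGS1 fell by 0.87 (SE 0.16, adjusted p = 0.000798), in 6 of 6 bears each. RAB3D, a GTPase of secretory granules, rose by 1.02 (SE 0.17, adjusted p = 0.000368) in 6 of 6. DESeq2 called 2 higher, as did edgeR on omitting bear 1509 or 1511. Among 22 tested genes of ROBO and Notch signalling, 11 were lower and 1 higher, beside the same shares of all tested genes, with a median of −0.55. NOTCH4, the endothelial Notch receptor, fell by 1.37 (SE 0.15, adjusted p = 2.69e-05), and SLIT3, a Roundabout ligand, fell by 1.14 (SE 0.35, adjusted p = 0.0195), each in all 6 bears. The gene called higher, SLIT1, had 1 to 39 reads, was higher in 3 of 6 bears and was not called without bear 1317, 1509 or 1511.

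**Figure D4:**
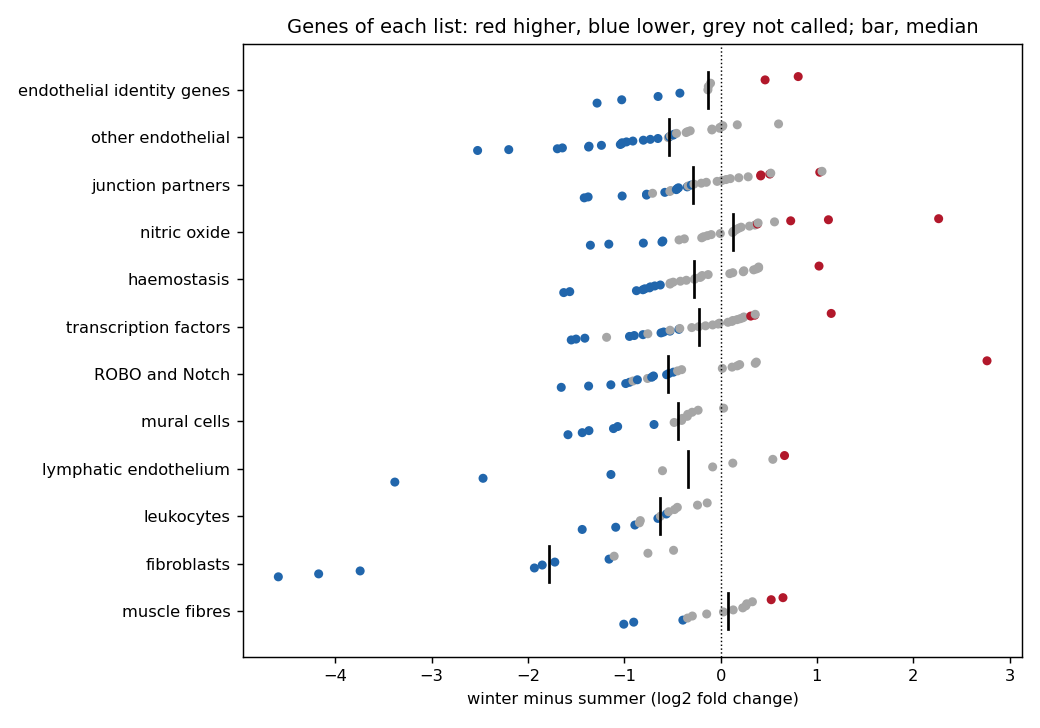
Winter minus summer on the log2 scale for every tested gene of the group and of the lists around it, 1 point per gene (red called higher, blue called lower, grey not called) with the median of each list as a black bar. The endothelial identity genes have a median of −0.13, the other endothelial genes one of −0.54 and the fibroblast markers one of −1.79.

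Markers of other cell types also differed between the seasons. For each list below, the shares over all tested genes were 19.9% lower and 19.6% higher. Of 14 markers of mural cells, the pericytes and smooth muscle around vessels, 6 were lower and 0 higher in edgeR (0 with unadjusted p under 0.05, 0 by DESeq2). The list summed to 1858 to 2227 CPM in summer and 1360 to 1896 CPM in winter. SYNPO2 weighed most in both sums and was not called (log2 fold change −0.23, adjusted p = 0.254). RGS5, MYLK and KCNJ8, among the 6 called lower, fell by 1.37, 1.07 and 1.11, and 8 markers were not called. The part of muscle fibres in the mural sum was not tested. Of 10 tested fibroblast markers, 7 were lower and 0 higher by the same tests (0 and 0), with sums of 4397 to 11630 CPM and 312 to 1940 CPM. The collagens COL1A1, COL1A2 and COL3A1 weighed most in the summer sum and fell by 4.59, 3.74 and 4.17. The paper places them among the target genes of TGF-β signalling. PDGFRA, DCN and FBLN1 were not called (adjusted p = 0.0772, 0.0848 and 0.0525). These genes and the mural genes above were named after their values were seen. Of 13 tested leukocyte markers, 5 were lower and 0 higher (0 and 0), and only 3 were lower without bear 1317. Their sums were 76.5 to 138 CPM and 52.8 to 95.1 CPM. The part of these cells in the differences of the endothelial genes was not tested. Platelet markers were near 0: the 8 in the table summed to 0.525 to 1.41 CPM in summer and 0.773 to 1.55 CPM in winter, with 0 reads of GP1BB, at most 3 of GP1BA, GP5, GP6 or GP9 in any library, and 8 to 28 of ITGA2B.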

How the data were processed

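Muscle RNA of 6 bears in 2 seasons was sequenced as stranded poly-A libraries. The authors aligned the reads to ASM358476v1 with TopHat2 2.1.1, counted reads per gene by strand with featureCounts 1.6.2 and deposited the counts without normalization. Counting noise depends on the reads of a gene, which are given here for some genes only. Each of the 9 tested genes had at least 96 reads in every library. The table holds 0 lines without a gene name and 0 columns of other samples, and no library was left out.

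R 4.3.3 and edgeR 4.0.16 were used, with TMM scaling, glmQLFit and glmQLFTest, season as the only term and a minimum of 30 reads per gene. Adjusted p values come from this edgeR fit unless DESeq2 1.42.0 or limma 3.58.1 is named. Ratios between genes are differences of log2 CPM and carry no test. Alternatives were a replicate block for the bear, DESeq2 (also with that block), limma voom, RLE, library totals, no filter, filterByExpr, each bear left out, the winter library of bear 1509 left out, and adjusted p limits of 0.01 and 0.1.

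The members and gene lists were chosen with earlier results of these data known. Genes named from a list were up to 2 called rises and 2 called falls of the largest size whose mean log2 CPM was 1 or more, and exceptions are stated. The lists cover endothelial, junction, nitric oxide, haemostasis, transcription factor, ROBO and Notch genes and markers of mural, lymphatic, platelet, red blood, leukocyte, fibroblast, fat and muscle fibre cells, and 6 genes stand in more than 1 of them.

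Pairing comes from the animal number, since every bear gave both libraries. After the mean of each season was removed, the paired libraries correlated at 0.0903 to 0.344 (median 0.237). The 30 unpaired combinations correlated at −0.214 to 0.142 (median −0.0634), so the ranges overlapped. The edgeR fits with and without the block, DESeq2 without it and limma voom were also tested on simulated data. Of the changes set at 2-fold, edgeR called 64.2% without the block and 59.6% with it, DESeq2 78.9% and limma voom 66.1%. Real changes of that size can thus go uncalled. The simulated libraries carried no bear effect, so they do not show how the block works on paired libraries. Transcript lengths and sequences of these genes were not used here. The profiles nearest to CLDN5 are not reported here.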

Additional observations from a re-analysis of the deposited data

Results flagged for a closer look

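In each season, the lowest and the highest of the 6 libraries were compared with the nearest other library for the 9 tested genes, 18 groups in all, and a library was noted where this gap exceeded Dixon's 95% critical value as a share of the range. Chance gives about 1 such group in 20, and 3 of 18 were found, all in the winter library of bear 1509. ESAM lay at 4.39 log2 CPM there, with the other winter libraries at 4.71 to 4.85. ROBO4 lay at 3.32, with the others at 4.09 to 4.51. NOS3 lay at 2.43, with the others at 3.11 to 3.47.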

How the results depend on the processing

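Each of the 9 tested genes was recomputed under 16 alternatives, 144 values, of which 129 kept direction and call, 9 lost the call and 6 changed sign. VWF, CDH5, EMCN and ERG kept both under all 16, and the losses were the 5 of PECAM1 and 4 of CLDN5 without single bears. The sign changes were those of the uncalled ESAM, ROBO4 and NOS3 without bear 1509, at 0.017, 0.053 and 0.095, and at 0.028, 0.061 and 0.13 when the bear was also a replicate block. With each bear left out, ESAM ran from −0.18 to 0.017, ROBO4 from −0.22 to 0.053 and NOS3 from −0.24 to 0.095, and without only the winter library of bear 1509 all 3 stayed below 0. With all bears, the replicate block gave the same 4 calls lower and 2 higher and changed no call of a tested gene. Genes called higher numbered 1 at an adjusted p below 0.01, and 1 to 2 with each bear left out (1 without bear 1305, 1317, 1511 or 1512), where 3 to 4 were called lower. Genes past the stricter limits numbered 2 to 5 with each bear left out (2 without bear 1316), and 6 in DESeq2 with the replicate block. Without the filter EGFL7, on its 22 reads, had an adjusted p of 0.0484, which made 5 called lower. With ESAM in place of PECAM1 as reference, the change of CDH5 was −0.91, that of ERG 0.56 and that of EMCN −0.55, while ROBO4 and NOS3 changed sign, from 0.26 to −0.058 and from 0.31 to −0.010. Of 63 recomputed ratios, 61 moved by less than the SD between bears, these last 3 among them. Of 252 recomputed list counts, 225 stayed within 1.5 times. The cause of these changes was not tested. The lane of each library, transcript length and RNA quality of single libraries were not analysed here. CLDN5 and NOS3, at most 507 reads per library, have the widest SE of the 9 tested genes. The part of read number in this was not tested.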

Other observations

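Markers of lymphatic endothelium, which drains tissue fluid, divided as well. Of 8 tested, 3 were lower and 1 higher in winter, beside 19.9% and 19.6% of all tested genes. CCL21, the chemokine that draws leukocytes into lymph vessels, fell by 2.47 on the log2 scale (SE 0.46, adjusted p = 0.000983) and PDPN, podoplanin, fell by 1.14 (SE 0.25, adjusted p = 0.00262), each in all 6 bears. PROX1, the transcription factor of lymphatic identity that muscle fibres express too, rose by 0.66 (SE 0.24, adjusted p = 0.0379) in 6 of 6 bears, a call lost with library totals and without bear 1317, 1509, 1511 or 1512. LYVE1, at −0.08 (adjusted p = 0.873), was not called. The third lower marker, TBX1, was lower in 4 of 6 bears and had 3 to 509 reads. These genes were named after their values were seen.

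Of 3 tested red blood cell markers, 1 was lower and 0 higher in edgeR (0 with unadjusted p under 0.05, 0 by DESeq2), and the 7 in the table summed to 3.93 to 67.9 CPM in summer and 34.5 to 56.9 CPM in winter. Without bear 1509, 1 was higher. Of 7 fat cell markers, 2 were lower and 1 higher, LEP, with at most 19 reads in a library. A replicate block for the bear left 1 lower and 0 higher, LEP was not called without bear 1317, 1511 or 1512, and 1 was lower without bear 1305 or 1316. Of 14 muscle fibre markers, 3 were lower and 2 higher, and only 1 was lower without bear 1316. The shares over all tested genes, for each of these lists, were 19.9% lower and 19.6% higher. Of 3 tested platelet markers, edgeR called 0 (0 with unadjusted p under 0.05, 0 by DESeq2).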
